A study of Mus musculus with 11 samples.

Results

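Acetylation of histone H3 at lysine 27 (H3K27ac) was mapped in the mouse tumour line M00002 with the antibodies that the labels call ac4729 and ac647. All peaks of both lists on chromosomes 1 to 19 and X were taken, 29409 for ac4729 and 15975 for ac647, 45384 together. The 11 lists of the series hold 158808 peaks, a total that also counts the chromosomes left out here. The 45384 H3K27ac peaks merged into 33408 regions where peaks of at least 1 bp in common were joined. The IgG library of the same line, made with an antibody of no specific target, gave 5932 peaks and was the background. The assay was CUT&RUN, in which a nuclease bound to the antibody cuts chromatin around the epitope in opened cells, and the fragments set free are sequenced.

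The series title names the ZFTA-RELA fusion and supratentorial ependymoma, a glial tumour of the forebrain. All M00002 libraries share the code Fus1 and 1 mouse number. The HA libraries are labelled as an HA-tagged CRfus1, read here as that fusion. The cells were untreated and grew on Matrigel in neural basal medium with bFGF and EGF, so the lists describe 1 cultured line and not a tumour with its other cell types. The promoter that drove the fusion, the age of the mouse and what the numbers in the antibody names stand for are not given in the sources used here. HA and p65, the NF-kappaB subunit Rela, were also mapped in M00002. Cbp, p300 and Rpb1, the catalytic subunit of RNA polymerase II, were mapped with Rpb1 antibodies written S2 and S5 in a second line, M00001, which carries the same code and another mouse number. Each antibody has 1 library, so the differences below have no replicate check and no test. Intervals are exact Clopper-Pearson 95% intervals and cover only counting error over peaks, regions or genes. The lists hold no reads, so the depth of the libraries is unknown, and a shorter list can come from a shallower library as well as from an antibody.

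H3K27ac is laid down by the acetyltransferases Cbp and p300 and is removed by histone deacetylases. It is found at the promoters of transcribed genes, on the nucleosomes to either side of the start site, and at active enhancers far from genes. Radial glia, the neural stem cells of the developing forebrain, express Sox9, Nes and Vim.

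The promoters of 4 genes are printed as single examples, 1 for each class of genes used below, chosen for the place of the gene in a ranking or list and not for being typical of its class. They are the 250 bases before the start site from RefSeq (GRCm38.p6, which has the coordinates of mm10), written 5′ to 3′ on the gene's strand, with each CG dinucleotide in capitals. Zhx3 (chr2:160872991-160873240, minus strand) led the common regions near gene ends. Riok2 (chr17:17374082-17374331, plus strand) led those found by ac4729 only. H2bc13 (chr13:21716184-21716433, minus strand) had the highest ac647 fold of the histone genes found by ac647 only, and Alb (chr5:90460620-90460869, plus strand), the albumin gene of hepatocytes, had neither.
Zhx3, both antibodies: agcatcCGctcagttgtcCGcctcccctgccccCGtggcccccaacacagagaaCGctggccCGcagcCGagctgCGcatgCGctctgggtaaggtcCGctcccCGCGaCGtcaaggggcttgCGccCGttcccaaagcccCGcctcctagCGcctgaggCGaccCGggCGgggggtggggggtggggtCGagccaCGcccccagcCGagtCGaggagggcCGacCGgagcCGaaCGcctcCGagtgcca
Riok2, ac4729 only: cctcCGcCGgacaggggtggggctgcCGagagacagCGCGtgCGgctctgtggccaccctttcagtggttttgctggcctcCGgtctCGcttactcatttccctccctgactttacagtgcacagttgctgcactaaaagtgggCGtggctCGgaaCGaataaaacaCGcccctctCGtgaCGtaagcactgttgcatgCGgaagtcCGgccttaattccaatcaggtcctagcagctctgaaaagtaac
H2bc13, ac647 only: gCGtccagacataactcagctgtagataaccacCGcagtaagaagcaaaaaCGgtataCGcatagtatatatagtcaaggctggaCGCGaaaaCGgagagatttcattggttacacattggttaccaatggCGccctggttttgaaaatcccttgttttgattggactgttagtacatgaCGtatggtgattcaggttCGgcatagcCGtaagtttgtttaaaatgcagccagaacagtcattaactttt
Alb, neither antibody: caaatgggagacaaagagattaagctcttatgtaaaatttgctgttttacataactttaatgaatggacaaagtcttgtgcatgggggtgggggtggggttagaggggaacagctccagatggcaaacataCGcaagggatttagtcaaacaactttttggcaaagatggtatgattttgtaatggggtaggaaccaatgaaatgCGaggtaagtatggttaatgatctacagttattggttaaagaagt
The Zhx3 stretch holds 28 CG dinucleotides and is 73.6% G and C, and the Riok2 stretch holds 16 at 57.2%. The H2bc13 stretch holds 11 at 42%, with 4 matches to CCAAT or its reverse ATTGG. The Alb stretch holds 2 CG dinucleotides at 39.2%. Over all start sites of a class, in windows of 300 bases described below, the median share of G and C was 61.7% for ac4729-only genes, 58.7% for ac647-only genes, 62% for genes with both and 53.3% for genes with neither, so the Zhx3 stretch is above the median of its class and the H2bc13 and Alb stretches are below theirs.

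Of the merged regions, 18343 (54.9%) held ac4729 peaks only, 4324 (12.9%) held ac647 peaks only and 10741 (32.2%) were common to both antibodies. The classes differed in width. The median was 358 bp for ac4729-only regions, 211.5 bp for ac647-only regions and 854 bp for common regions, with interquartile ranges of 255 to 538 bp, 174 to 304 bp and 595 to 1159 bp. Common regions join the peaks of both lists, so the fairer comparison is within a list. There the median was 358 bp for ac4729-only peaks and 728.5 bp for ac4729 peaks that met ac647, and 211.5 bp for ac647-only peaks and 432 bp for ac647 peaks that met ac4729. IgG peaks had a median of 165 bp, closest to the ac647-only peaks. A wider peak also meets another list more easily.

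Where the antibodies met, the ac4729 peaks had the larger median width. Pairs were formed by overlap, so the widths limit how far apart their summits can be, and the distances are a description. Over 11976 overlapping pairs of peaks the summits lay a median of 132 bp apart, and 62.1% were within 200 bp. The median ac4729 peak of a pair was 758 bp and the median ac647 peak 444 bp. The ac647 peak lay wholly inside the ac4729 peak in 42.4% of pairs, and the reverse held in 12.3%. Fold enrichment, the authors' value at the summit and used here only within a list, had a Spearman correlation of 0.367 across pairs, which is given as a description because neighbouring peaks of the same libraries are not independent. In bases, ac4729 covered 16.59 Mb, ac647 covered 7.715 Mb and both covered 5.409 Mb, which is 32.6% of the ac4729 bases and 70.1% of the ac647 bases.

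The antibody-only regions stood differently to the other list. Of ac4729-only regions, 9.20% (8.79 to 9.63) lay within 1 kb of an ac647 peak that they did not touch, against 35.8% (34.4 to 37.3) of ac647-only regions within 1 kb of an ac4729 peak. The ac4729 list has more peaks to be near, and the part of list length in these shares was not tested. When only the 15975 ac4729 peaks with the lowest p-values were kept, so that the lists were equally long, 53.8% of ac4729 peaks met ac647 and 58.3% of ac647 peaks met ac4729, against 37.6% and 72.9% in the full lists.

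Peaks of each list were ranked by fold enrichment into 5 equal classes. For ac4729 the share that met ac647 was 29.9%, 24.3%, 34.0%, 42.5% and 57.5% from the lowest class to the highest. For ac647 the share that met ac4729 was 50.9% in the lowest class and 64.5%, 78.3%, 86.4% and 84.6% in the next 4. Strong peaks of both lists were thus common more often than weak ones, except that the second ac4729 class was below the first and the top ac647 class just below the fourth.

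Fold enrichment went with position in one list and not in the other. The share of ac4729 peaks within 1 kb of an end of a protein-coding gene was 16.3%, 17.2%, 21.2%, 24.7% and 40.2% over the same classes. For ac647 it was 17.2%, 18.8%, 19.4%, 18.2% and 17.4%, with intervals that overlap between the first and the last. The top ac4729 class met IgG in 4.78% (4.25 to 5.35) and the lowest in 1.34% (1.07 to 1.67). The top ac647 class met IgG in 14.0% (12.8 to 15.3) of its peaks and the lowest in 3.91% (3.27 to 4.64).

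**Figure D1:**
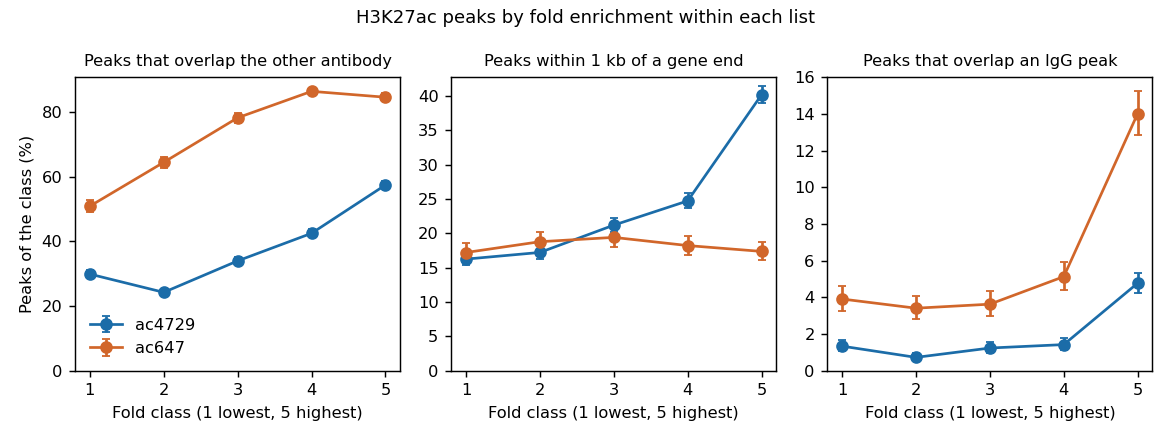
Share of H3K27ac peaks (%, vertical axis from 0) in 5 equal classes of fold enrichment within each list, for ac4729 and ac647 of line M00002, that overlap the other antibody, lie within 1 kb of a gene end or overlap an IgG peak; bars are exact 95% intervals over peaks. The share near a gene end reaches 40.2% in the top ac4729 class and 17.4% in the top ac647 class, while 14.0% of the top ac647 class overlaps IgG.

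Regions near gene ends made up the largest share of the ac4729-only class and the smallest share of the ac647-only class. Within 1 kb of an end of a protein-coding gene lay 25.7% (25.0 to 26.3) of ac4729-only regions, 11.4% (10.4 to 12.3) of ac647-only regions and 21.6% (20.9 to 22.4) of common regions, against 5.09% (4.55 to 5.68) of IgG peaks. Inside genes, over 1 kb from every end, lay 41.4%, 47.4% and 45.3% of the classes in that order, and 36.2% of IgG peaks. Outside genes and over 10 kb from every end lay 27.4%, 31.9% and 26.0%, and 48.2% of IgG peaks. So most regions of every class, like most IgG peaks, were away from the ends of protein-coding genes. H3K27ac there is read as a mark of enhancers, but ends of non-coding genes were not counted. How many of these regions are enhancers, non-coding promoters or background was not tested. With both lists held to a −log10 q of 5 or more, 38.6% of ac4729-only regions, 8.90% of ac647-only regions and 21.4% of common regions were near a gene end. With a window of 250 bp the shares were 18.6%, 5.50% and 16.4%, and with one of 5 kb they were 35.9%, 26.4% and 32.9%.

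**Figure D2:**
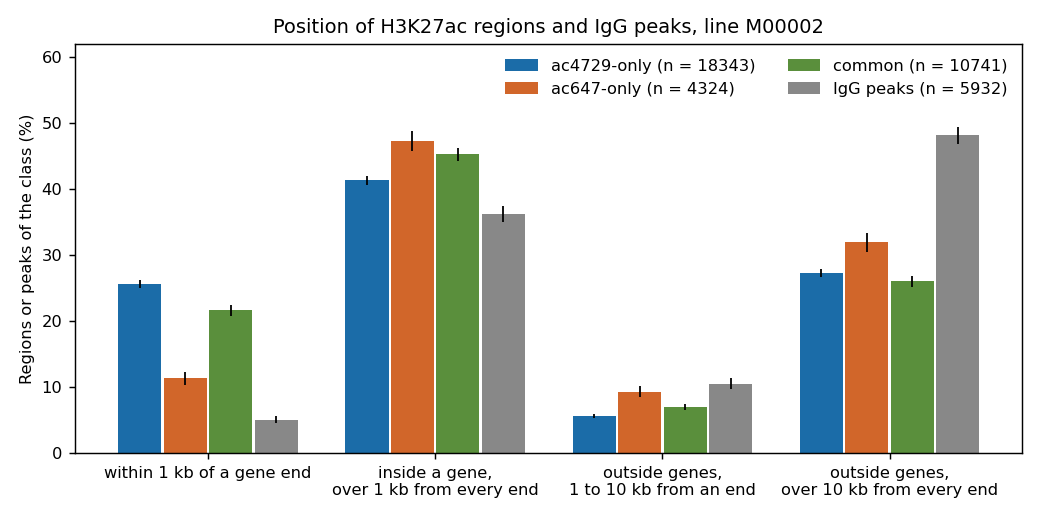
Share of regions or peaks (%, vertical axis from 0) by position to protein-coding genes for ac4729-only, ac647-only and common H3K27ac regions and IgG peaks of line M00002; bars are exact 95% intervals over regions. Near a gene end the ac4729-only bar is highest at 25.7% and the IgG bar lowest at 5.09%.

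IgG overlap followed another order than width. It was 0.589% (0.483 to 0.710) for ac4729-only regions, 12.1% (11.1 to 13.1) for ac647-only regions and 4.24% (3.86 to 4.63) for common regions. The narrowest class thus met IgG most often. With a −log10 q of at least 5 the shares were 1.32%, 20.2% and 8.10%.

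HA, p65, p300 and both Rpb1 lists met common regions most often. HA of M00002 overlapped 21.6% of ac4729-only regions, 13.2% of ac647-only regions and 57.4% of common regions, and p65 overlapped 12.2%, 8.56% and 43.4%. Rpb1 S5 of M00001 overlapped 10.5%, 13.8% and 25.1%, and Rpb1 S2 overlapped 24.6%, 20.7% and 42.0%. The coactivator p300 of M00001 overlapped 3.78%, 12.0% and 17.5%. Cbp of M00001 was highest at another class, with 1.78% of ac4729-only regions, 11.1% of ac647-only regions and 8.99% of common regions. Of IgG peaks of M00002 themselves, 19.3% met Cbp and 17.7% met p300 of M00001. Rpb1 S2 met 20.2% of these IgG peaks and Rpb1 S5 met 18.6%, while HA and p65 of M00002 met 11.1% and 9.07%. For ac647-only regions the Rpb1 S2 share was thus close to that of IgG peaks, and the Rpb1 S5 share was below it. The Rpb1 S5 share of ac4729-only regions was also below that of IgG peaks. Among regions near a gene end, Rpb1 S2 was at 59.4% of ac4729-only, 35.0% of ac647-only and 67.8% of common regions. The widths of the classes differ as given above, and their part in these shares was not tested.

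The strongest 1% of each antibody-only class, by fold within its own list, were set side by side, a measure chosen after values were seen. Of the 183 ac4729-only regions so ranked, 139 were near a gene end, 141 met Rpb1 S2 of M00001 and 4 met IgG of M00002, and the median width was 621 bp. In M00002, HA met 63 of the 183 and p65 met 36, while HA of M00001 met 29 and IgG of M00001 met none. Of the 43 ac647-only regions, 2 were near a gene end, 8 met Rpb1 S2 and 15 met IgG of M00002, and the median width was 198 bp. In M00002, HA met 16 of the 43 and p65 met 18, while HA of M00001 met 35 and IgG of M00001 met 12. Over the whole classes, HA of M00001 met 6.12% of ac4729-only and 12.95% of ac647-only regions. IgG of M00001 met 0.120% and 3.28% of them. Without an overlap with IgG of M00002 the highest ac647-only folds were 52.6 inside Zfp949, 48.5 inside Ybx3, 48.4 inside Prkdc and 46.5 inside Plxdc2, at widths of 207, 202, 200 and 199 bp, and each of these met HA of M00001. The Zfp949 region also met IgG of M00001. These 4 were named after their values were seen.

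The highest fold of both lists was at a region that met IgG. This region of 285 bp inside Chl1, which encodes a neural adhesion molecule (chr6:103649048-103649332), had a fold of 50.0 with ac4729 and 59.6 with ac647. One of 234 bp nearest to Dpy19l2 had 44.8 and 58.8, and one of 263 bp nearest to Rab10, a small GTPase, had 46.8 and 52.7. All 3 met every other list of the series. Regions inside Acacb and Auts2 and in 2210408I21Rik had ac647 folds of 55.7, 48.3 and 47.9 and no ac4729 peak. Those at Cobl and Gtpbp4 had ac4729 folds of 35.3 and 30.4, and ac647 folds of 47.0 and 45.7. The regions named below do not meet IgG of M00002 unless stated.

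The common regions near gene ends with the highest mean rank of fold over both lists were at genes of unlike function. The region 202 bp from Zhx3, a zinc finger and homeobox repressor (chr2:160873192-160874055), had a fold of 11.5 with ac4729 and 12.1 with ac647. Srrm1, a splicing coactivator, had 8.19 and 15.0 at a region of 1470 bp (chr4:135353322-135354791). Sec61a1, the pore subunit of the endoplasmic reticulum translocon, had 8.39 and 10.4, and Usp48, a deubiquitinase, had 12.9 and 8.60. The others of the first 10 were at 0610009B22Rik, Gm6583 with Hps4, Wdr62, which encodes a spindle pole protein, Gm21992 with the RNA-binding Rbm14, Txn1, which encodes thioredoxin, and Cbs, the first enzyme of transsulfuration. Their folds ran from 7.85 at Wdr62 to 10.3 at 0610009B22Rik with ac4729 and from 9.37 at 0610009B22Rik to 11.8 at Wdr62 with ac647. Of the 10 regions, Usp48 was the one that met neither HA nor p65 of M00002. Over all common regions within 1 kb of a gene end, HA met 63.1% and p65 met 47.1%.

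Far from gene ends the strongest common region was inside Ptk7, a pseudokinase of planar cell polarity (chr17:46583019-46583577), with a fold of 11.6 for ac4729 and 13.5 for ac647. It lay 18568 bp from the nearest end. Regions inside Naaladl2, Epg5, an autophagy gene, and Wdfy2 had ac4729 folds of 10.5, 8.96 and 8.86, and ac647 folds of 11.2, 11.7 and 11.2. The Naaladl2 region was 247 bp wide and met IgG of M00001, though not that of M00002. A region 21084 bp from Wee1, the kinase that holds back mitotic entry, had folds of 8.42 and 10.2. The others were nearest to Vmn2r121, Gm39147 and D130037M23Rik, at 153656, 30186 and 42773 bp. All 8 met HA of M00002 and all but Naaladl2 met p65. Of all common regions over 1 kb from every gene end, HA met 55.9% and p65 met 42.4%. The nearest gene is a label of place and not a target.

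The widest common regions that do not meet IgG of M00002, named after their values were seen, had moderate folds. They spanned 3477 bp inside Actn1, an actin crosslinker, 3412 bp inside Iqsec1 and 3233 bp at the ends of Erbin and D130037M23Rik. At Actn1 the fold was 2.91 with ac4729 and 4.45 with ac647. A region of 2893 bp lay 181304 bp from Hes1, the Notch effector that keeps radial glia undifferentiated and the nearest gene to it, with folds of 3.88 and 5.55. It met HA, p65, Cbp, p300 and both Rpb1 lists.

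The strongest ac4729-only regions near gene ends were 377 to 783 bp wide. Riok2, a kinase of small ribosomal subunit maturation, had a fold of 14.4 over 627 bp (chr17:17374299-17374925). Ostc, a subunit of the oligosaccharyltransferase, had 14.3 over 568 bp, and the shared end of Dcun1d3 and Lyrm1 had 13.7 over 733 bp. Ccdc124, Gripap1, Cry1, a repressor of the circadian clock, Tmem260 and Hyal2, a hyaluronidase, had folds from 12.6 to 13.2. All 8 met Rpb1 S2 of M00001, and 2 of them, Ostc and Cry1, met HA of M00002. Over all ac4729-only regions near a gene end these lists met 59.4% and 29.6%.

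Most of the strongest ac647-only regions near gene ends were narrow. The highest fold, 29.2, was 113 bp from Rps29, a protein of the small ribosomal subunit, but its 434 bp (chr12:69159299-69159732) also cover Rn7s1, a gene for the 7SL RNA of the signal recognition particle. The many near-identical copies of that RNA make the placement of its reads uncertain. Deaf1, Naaa, Trim67, Mthfd1l, Rab40b and Fan1 had folds of 21.6, 16.3, 11.2, 8.08, 8.06 and 7.70 over regions of 158 to 185 bp, and none of these 6 met any other list of the series. Adgrf2 had 7.70 over 661 bp and met all 5 lists of M00001 other than IgG but neither HA nor p65 of M00002.

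Counted by gene, ac4729 marked most of what ac647 marked. Of 21631 protein-coding genes, 4387 (20.3%) had an ac4729 peak only within 1 kb of either end, 215 (0.994%) had an ac647 peak only and 2624 (12.1%) had both, so that 7226 (33.4%) had at least 1 of them. An ac4729 peak of any kind lay at 32.4% of genes and an ac647 peak at 13.1%. By start site, over the 17274 genes with a strand, 21% had ac4729 only, 0.834% had ac647 only and 12.5% had both. An IgG peak lay within 1 kb of either end of 311 genes (1.44%). In 93.6% of the genes with both, a common region lay at an end. In the others the antibodies marked separate places. An Rpb1 S5 peak of M00001 lay as near to 40.9% of ac4729-only genes, 40.0% of ac647-only genes, 60.0% of genes with both and 7.47% of genes with neither. Rpb1 S2 was at 77.4%, 61.4%, 82.1% and 21.8%. With a −log10 q of at least 5 the counts were 3141 genes with ac4729 only, 127 with ac647 only and 945 with both. With lists of equal length they were 2885, 527 and 2312.

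The mark stood at gene starts rather than at far ends. Among 11034 genes over 10 kb long with a known strand, an ac4729 peak lay within 1 kb of the start site at 35.3% (34.4 to 36.2) and of the far end at 4.65% (4.26 to 5.06). For ac647 the shares were 12.7% (12.1 to 13.3) and 2.54% (2.25 to 2.85), and for IgG they were 1.08% and 0.471%. Of the ac4729 summits within 1 kb of a start site, 58.8% were inside the gene, with a median offset of 93 bp, and 49.9% were within 250 bp. Of the ac647 summits there, 51.5% were inside, with a median offset of 37 bp, and 39.0% were within 250 bp. Both profiles had a peak on each side of the start and a dip between.

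**Figure D3:**
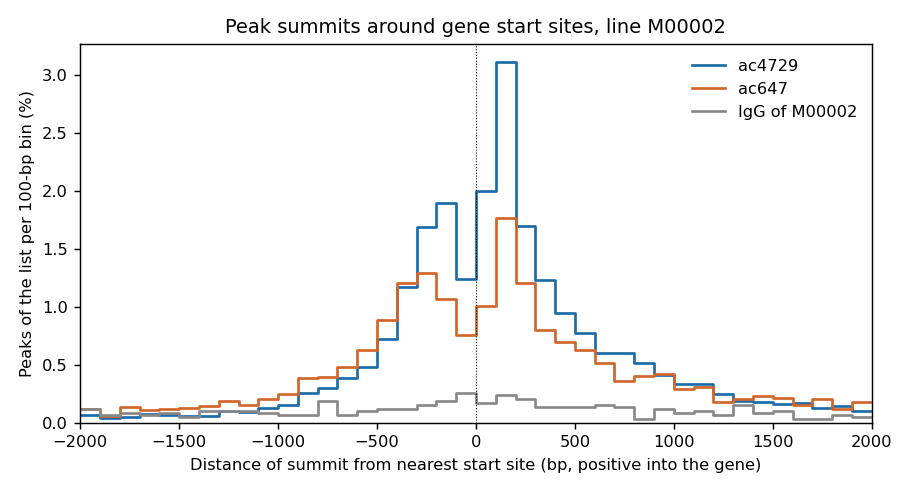
Peak summits around start sites of genes with a known strand, for ac4729, ac647 and IgG of line M00002. The vertical axis, from 0, is the share (%) per 100-bp bin of distance (bp, positive into the gene). Shares are of the peaks of a list outside chromosome 18, where no strand was given (28453, 15439 and 5759 peaks). The ac4729 and ac647 lines rise on both sides of the start and are higher on the gene side, and the IgG line stays below both within 500 bp of it.

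Promoters marked by either antibody were rich in CG dinucleotides. RefSeq gave 21045 start sites for genes with a strand, and each gave 300 bases, 250 before the start and 50 after it. The ratio of observed to expected CG had a median of 0.801 at start sites of ac4729-only genes, 0.747 at those of ac647-only genes, 0.797 at those with both and 0.368 at those with neither, against 0.574 over all. The GC box GGGCGG, read on both strands like the motifs below, was in 67.8%, 60.9%, 66.5% and 36.4% of these promoters and in 46.7% of all. The Ets core CCGGAAG was in 20.9%, 14.2%, 17.4% and 7.79%, and in 11.7% of all. TATAAA was in 6.04%, 12.2%, 6.43% and 15.8%, and in 12.7% of all. CCAAT was in 39.3%, 44.2%, 37.4% and 38.4%, and in 38.5% of all. TGACTCA, the AP-1 site, was in 3.25%, 3.55%, 4.00% and 5.27%, and in 4.68% of all. A match is a run of letters and not a bound site. Zhx3 and Riok2 above are high in CG, and Alb is low in it.

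Among cell type lists, all chosen with earlier results of these data known, neural stem cell genes had the largest share of marked members. Of 18 radial glia and neural stem cell genes, 9 (50%) had a mark at an end, against 33.4% of all genes, and 6 had both antibodies: Sox9, Nes, Vim, Hes1, Nfib and Lhx2. The ac647 peak at Hes1 was weak, with a fold of 2.57, near the bottom of the ac647 list, and a −log10 q of 0.549. Sox9, a transcription factor of glial progenitors, had a fold of 5.59 with ac4729 and 4.50 with ac647. Vim, an intermediate filament of radial glia, had 3.67 and 6.37. Nes, another such filament, had 4.05 and 3.46. Slc1a3 and Nfia had ac4729 only, with folds of 3.33 and 4.03. Sox2, a factor of neural stem cells, had ac647 only, at 2.75, a fold near the bottom of that list. Notch1, Pax6, Hes5, Fabp7 and 5 others had neither within 1 kb. Within 5 kb, 14 of the 18 genes had a mark, 10 of them with both antibodies, against 44.3% of all genes at that distance. In the other cell type lists the share within 5 kb was lowest for liver, muscle, skin and pancreas (1 of 15 genes) and highest for astrocytes (5 of 10). Of the 15 ependymal and multiciliated cell genes, 2 had both antibodies and 4 had ac4729 only at that distance.

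The other cell type lists had between 0 and 33.3% of their genes marked within 1 kb, against 33.4% of all genes, and no difference between lists was tested. Of 15 ependymal and multiciliated cell genes, 2 were marked, both by ac4729 only: Foxj1, the master factor of motile cilia, at a fold of 4.37, and Gmnc, which starts the multiciliated program, at 4.71. None of 15 neuron genes was marked, Rbfox3, Tubb3 and Dcx included. Of 12 oligodendrocyte lineage genes, 4 were marked, a share close to that of all genes: Sox10, Cspg4 and Mbp with ac4729 only and Myrf with both. Olig2 and Pdgfra had neither. Of 10 astrocyte genes, Gja1 had ac4729 only and Fgfr3 had both, with folds of 5.43 for ac4729 and 7.36 for ac647, while Gfap and Aqp4 had neither. Of 12 microglia and leukocyte genes, 2 were marked, Csf1r with ac4729 only and Tmem119 with both, and Ptprc, Spi1 and Aif1 were not. Of 10 endothelium genes, Egfl7 alone was marked, with both antibodies, and Pecam1 and Cdh5 were not. Of 15 genes of liver, muscle, skin and pancreas, Apoa2 alone was marked, by ac4729 at 7.26. A mark within 1 kb can belong to a neighbouring gene.

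None of 39 Hox cluster genes, which pattern the hindbrain and spinal cord, was marked by either antibody, against 33.4% of all genes. Of 1106 olfactory receptor genes, 3 were marked by ac4729 only, and of 49 keratin genes Krt80 alone was, by both. Over all genes 20.3% had ac4729 only and 12.1% had both.

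**Figure D4:**
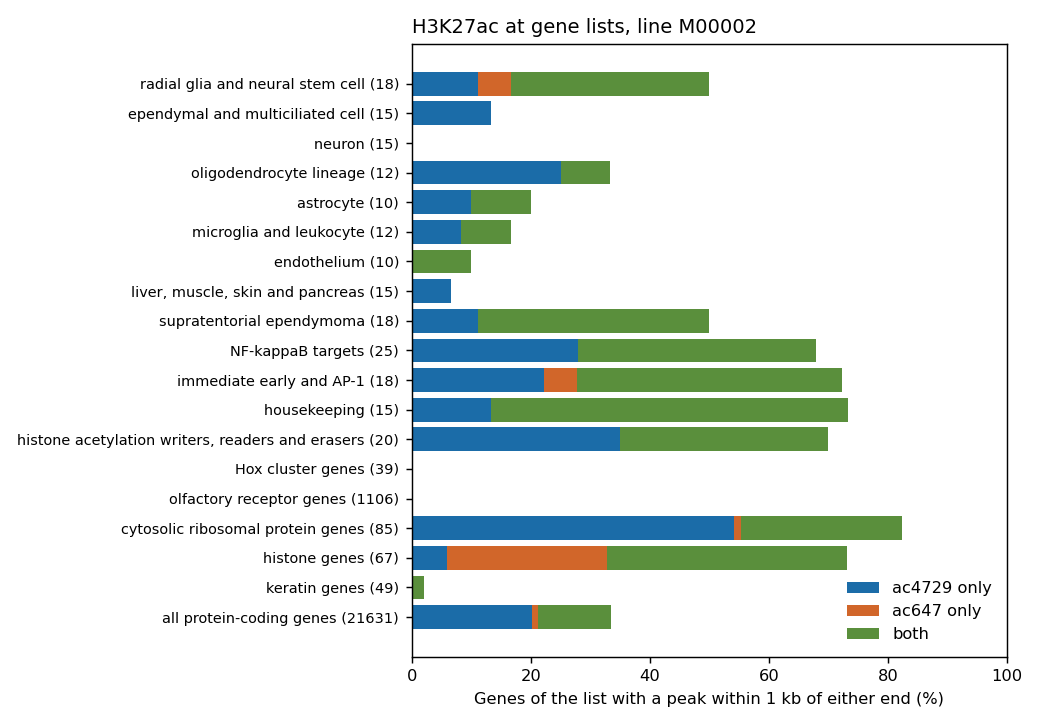
Share of genes of each list (%, horizontal axis from 0, number of genes in brackets) with an H3K27ac peak of line M00002 within 1 kb of either end, split into ac4729 only, ac647 only and both. The ac647-only part is 0.994% over all protein-coding genes and 26.9% for histone genes.

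Lists tied to the tumour and to NF-kappaB had a larger share of marked genes than the 33.4% of all genes. So did other lists below, among them housekeeping genes (73.3%) and ribosomal protein genes (82.4%). Relb and Nfkb2 are in both the ependymoma and the NF-kappaB list, and Hes1, Lhx2 and Notch1 are also in the neural stem cell list. Of 18 supratentorial ependymoma genes, 9 (50%) were marked. Relb, an NF-kappaB subunit, had folds of 6.56 with ac4729 and 5.63 with ac647, and Ccnd1, the G1 cyclin, had 4.45 and 3.18. Rela had an ac4729 fold of 4.77 at one end and an ac647 fold of 3.43 at the other. Hes1, Lhx2, Igf2 and Sox4 had both, though the ac647 peak at Hes1 had a −log10 q of 0.549, and Gli2 and Ephb2 had ac4729 only. L1cam, Notch1, Jag1 and Nfkb2 had neither.

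Of 25 NF-kappaB targets, 17 (68%) were marked, 7 by ac4729 only and 10 by both. Nfkb1 had folds of 5.93 with ac4729 and 4.65 with ac647, and the ac4729 peak was 1835 bp wide. Irf1, an interferon-response factor, had 5.42 and 4.63, and Il6, the cytokine, had 5.55 and 4.90. Icam1, an adhesion molecule, had 5.94 and 2.96, and its ac647 peak had a −log10 q of 0.921. Cxcl1, a chemokine, had ac4729 only at 6.32 over 1500 bp. Birc3, an inhibitor of apoptosis, had 6.07 and 6.03, but an IgG peak lies there too. Tnf, Ccl5, Cxcl10, Vcam1, Traf1, Rel, Nfkbie and Nfkb2 had neither.

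Of 18 immediate early and AP-1 genes, 13 (72.2%) were marked, against 33.4% of all genes, 4 by ac4729 only, 1 by ac647 only and 8 by both. Fos had a fold of 9.60 with ac4729 and 5.68 with ac647, Dusp1, a phosphatase of MAP kinases, had 6.08 and 4.28, and Jun had 5.33 and 3.70. Junb had 3.79 and 5.08. Zfp36, which destabilises inflammatory messages, had ac647 only at 2.65.

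Of 15 housekeeping genes, 11 (73.3%) were marked, against 33.4% of all genes, 2 by ac4729 only and 9 by both, with Gapdh at 5.05 and 7.31 and Eef1a1 at 7.34 and 5.36. Of 20 genes of histone acetylation, 14 (70%) were marked, 7 by ac4729 only and 7 by both, again beside 33.4% of all genes. Ep300, which encodes p300, had 5.61 with ac4729 and 5.92 with ac647, while Crebbp, which encodes Cbp, had ac4729 only at 4.29. Hdac3, Brd3 and Kat2b had neither.

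Cytosolic ribosomal proteins and histones are both made in quantity in dividing cells. Of 85 ribosomal protein genes, 46 had ac4729 only, 1 (Rpl23a) had ac647 only, 23 had both and 15 had neither. Of all genes, 20.3% had ac4729 only, 0.994% had ac647 only and 12.1% had both. Rps3 had an ac4729 fold of 9.40 and Rps6 one of 9.39, with no ac647 peak at either. Rpl10 had 6.69 with ac4729 and 7.63 with ac647, and Rps14 had 6.71 and 5.06. The median ac4729 fold at marked ribosomal protein genes was 5.13, against 4.66 over the marked genes that are not histone genes.

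Of 67 histone genes chosen by name, 4 had ac4729 only, 18 (26.9%) had ac647 only, 27 had both and 18 had neither, against 0.994% of all genes with ac647 only. These 18 are 8.37% (5.04 to 12.9) of all 215 ac647-only genes, an interval that counts genes as independent though some share a peak. All 18 were among the 63 genes of the clusters on chromosomes 3 and 13, which encode mainly the histones packed onto DNA as it replicates. On chromosome 13, 3 of 53 genes had ac4729 only, 17 had ac647 only, 18 had both and 15 had neither. On chromosome 3, 1 of 10 genes, H3c14, had ac647 only and 9 had both. The class with ac647 only held 2 of 6 H1 genes, 5 of 17 H2a genes, 5 of 16 H2b genes, 2 of 12 H3 genes and 4 of 12 H4 genes. No IgG peak of M00002 lay at any of the 67, and Rpb1 S5 of M00001 lay at 53.

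The folds at histone genes were moderate. Over the 18 genes with ac647 only they ran from 2.74 at H2ac15 and H2bc15, near the bottom of the ac647 list, to 4.32. At 4 of these genes, H2ac15, H2bc15, H2ac22 and H2bc22, the −log10 q was under 1. The 18 genes rest on 14 distinct ac647 peaks, and 1 of these, near H2ac11, overlaps an ac4729 peak that lies over 1 kb from the gene. H2ac20 on chromosome 3 had 5.20 with ac4729 and 6.90 with ac647, and H3c6 on chromosome 13 had 4.29 and 6.92. H4c17, H1f4 and H4c3 had ac647 only, at 4.26, 4.24 and 4.10. H2bc13 and its neighbour H2ac13 share the same ac647 peak at 4.32 (chr13:21715800-21716031), which lies in the body of H2bc13, beside the promoter printed above. Because the genes are short and close, 21 distinct ac4729 peaks and 31 distinct ac647 peaks stood for the genes counted over both clusters. Many copies are near-identical in sequence, so the placement of reads among them is uncertain, for both antibodies.

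Few other short genes were marked at all. Of 1382 further genes under 1000 bp, 18 had ac4729 only, 1 (0.0724%) had ac647 only, 17 had both and 1346 had neither, against 0.994% of all genes with ac647 only. The median length of these 1382 genes was 936 bp, against 492 bp for the histone genes of both clusters, so the sets are not matched in length. Of the 36 with a mark, 2.78% had ac647 only, and the part of gene length was not tested. The count of cluster genes with ac647 only was 4 with a −log10 q of at least 5, 28 with lists of equal length and 14 with a window of 5 kb. Under the first of these settings 4 cluster genes had both antibodies. Of 59 promoters of cluster genes, 86.4% held CCAAT and 57.6% held TATAAA, against 38.5% and 12.7% of all promoters, and GGGCGG was in 39.0% against 46.7%.

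Along 160 kb of the chromosome 13 cluster, with 17 histone genes, ac4729 had 8 peaks with folds from 2.91 to 6.50 and ac647 had 12 with folds from 2.73 to 6.46. Rpb1 S5 of M00001 had 12 and IgG of M00002 had none. The highest ac4729 fold there lay 50.0 kb from H2bc13, away from the histone genes, and the highest ac647 fold lay 14.1 kb from it, where ac4729 had a fold of 5.14.

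**Figure D5:**
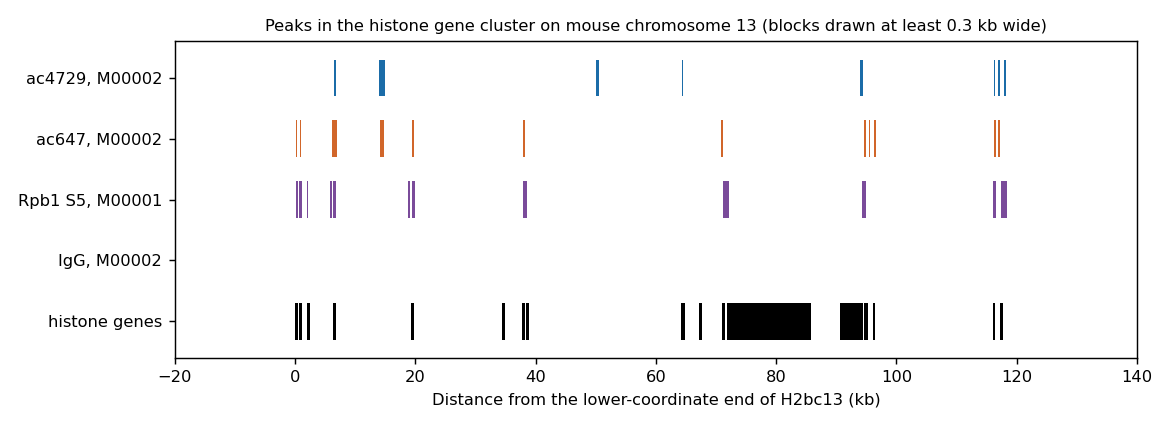
Peaks of ac4729, ac647 and IgG of M00002 and of Rpb1 S5 of M00001 (rows) along part of the chromosome 13 histone cluster, with the histone genes below, by distance from the lower-coordinate end of H2bc13 (kb). There are 8 ac4729 blocks, 12 ac647 blocks, 12 Rpb1 S5 blocks and no IgG block among 17 genes.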

How the data were processed

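CUT&RUN peak lists of 3 libraries of line M00002 (H3K27ac with ac4729, H3K27ac with ac647, IgG) were compared, with the lists of HA and p65 of M00002 and of HA, IgG, Cbp, p300 and Rpb1 S2 and S5 of M00001 as further readouts. Per the submitters' processing notes, the build was mm10 and the tools were MACS2, deepTools, Bowtie2 2.3.5.1, FastQC and Trim Galore. Neither their settings nor the control for peak calling is given in the sources used here. The deposited lists give, by the column order of MACS2, for each peak a score, the ratio of summit signal to background (fold enrichment), a −log10 p-value and a −log10 q-value. The smallest deposited −log10 p was 3.00, and 86.5% of ac4729, 79.9% of ac647 and 23.0% of IgG peaks had a −log10 q of at least 2. Peaks were called by the authors per library and not on pooled libraries. The lists hold no reads, so depth is unknown.

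Chromosomes 1 to 19 and X were used, which left out 0.733% of ac4729, 4.65% of ac647 and 15.8% of IgG peaks. Overlap means at least 1 bp. Overlapping H3K27ac peaks were merged into regions, and a region with peaks of both lists is common. Gene ends came from 21631 protein-coding genes of RefSeq (GRCm38.p6). Either end was used for counts over all genes, because the strand, and so the start site, was given for 17274 of them and for none on chromosome 18. A gene's fold is the highest of the peaks within 1 kb of its ends. Regions were named by rank of fold within each class (the first 10 or 8, IgG overlaps apart), and list members by rank. The members and gene lists were chosen with earlier results of these data known. Overlap counts were checked on intervals with known overlaps and against bedtools. Python 3.11.15, numpy 2.4.6, pandas 2.3.3, scipy 1.17.1 and matplotlib 3.10.9 were used. Alternatives were a −log10 q of at least 5, lists of equal length, 250 bp on either side of each summit in place of the peak, removal of IgG overlaps, an overlap of 50% of the shorter peak, joining of peaks within 500 bp, gene windows of 250 bp and 5 kb, and start sites in place of either end. The last, and all those for histone genes, were chosen after seeing the data. Some single genes are not reported here.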

Additional observations from a re-analysis of the deposited data

How the results depend on the processing

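With both lists held to a −log10 q of 5 or more, 35.3% of ac4729 peaks met ac647, 71.3% of ac647 peaks met ac4729 and 3841 regions were common. Near a gene end were then 38.6% of ac4729-only and 8.90% of ac647-only regions, and IgG overlapped 1.32% of ac4729-only, 20.2% of ac647-only and 8.10% of common regions. The genes with ac647 only were 127 and those with both 945, and the histone cluster genes 4 with ac647 only and 4 with both. With lists of equal length, 53.8% and 58.3% of peaks met the other list, 36.6% of ac4729-only and 23.5% of common regions were near a gene end, and IgG overlapped 0.826%, 8.69% and 4.69% of the ac4729-only, ac647-only and common regions. The genes were 2885 with ac4729 only and 527 with ac647 only, and the histone cluster genes 28 with ac647 only and 17 with both.

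With 250 bp each side of the summit, 37.0% of ac4729 and 70.1% of ac647 peaks met the other list and 13.6% of ac647-only regions were near a gene end. Without peaks that met IgG of either line these were 36.7%, 74.5% and 12.8%. With an overlap of 50% of the shorter peak, 35.1% and 67.6% of peaks were shared. With peaks joined within 500 bp, 25.0% of ac4729-only and 8.81% of ac647-only regions were near a gene end and 16.7% of ac647-only regions met IgG. A gene window of 250 bp gave 18.6%, 5.50% and 16.4% of ac4729-only, ac647-only and common regions and 1601 genes with both. A window of 5 kb gave 35.9%, 26.4% and 32.9%, 4282 genes with both and 45 histone cluster genes with both. Start sites in place of either end gave 22.2%, 8.86% and 18.7%.

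Of 85 values under alternatives, 39 stayed within the interval of the reported share or within 1.5 times the reported count. Under every setting run, ac4729-only regions had the largest and ac647-only regions the smallest share near a gene end, and the ac647-only class the largest share with IgG. No paired analysis was possible because each antibody has 1 library. Read depth is unknown, so list length and antibody cannot be told apart.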

Other observations

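Outside protein-coding genes, 1352 of 12697 lncRNA genes met an ac4729 peak only, 164 an ac647 peak only and 1247 both, so 21.8% met at least 1, and 3.62% met IgG. Of 1228 miRNA genes, 21 met ac4729 only, 9 met ac647 only and 21 met both, so 4.15% met at least 1. Of 9852 pseudogenes, 65 met ac4729 only, 35 met ac647 only and 48 met both, while 90 met IgG.

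Chromosome X held 636 H3K27ac regions, 65.8 per 100 protein-coding genes, against 97.4 on chromosome 7 and 233.5 on chromosome 3, the lowest and highest of the autosomes. Of the X regions 23.6% were ac647-only, against 10.7% on chromosome 10 and 16.0% on chromosome 13, the lowest and highest of the autosomes. IgG peaks numbered 25.0 per 100 genes on X. The lists also hold peaks on the Y chromosome, 97 for ac4729, 634 for ac647 and 946 for IgG, which were used in no comparison.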
